A study of Mus musculus with 8 samples.

Results

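SOX genes other than Sox2, 10 in all, were read in mouse embryonic stem (ES) cells given an esiRNA against Ctr9, and by their brightest probe sets 5 of the 6 members tied to neural development were higher there while Sox21 was lower. For 1 of the 5, Sox12, the rise was small, another probe set fell, and the mean of its probe sets did not pass. Neither of the 2 members tied to endoderm, Sox7 and Sox17, passed the test. Over all genes 30.8% passed, 15.8% as higher and 15.0% as lower. The members are the 10 genes Sox1, Sox3, Sox4, Sox7, Sox11, Sox12, Sox13, Sox15, Sox17 and Sox21, out of 18193 genes with a probe set assigned to a single gene symbol. They were taken by symbol, with all 29 of their probe sets among 45037 tested. A probe set is a group of short oligonucleotides on the array that together read 1 transcript, and several probe sets can be assigned to 1 gene.

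Total RNA of ES cells was hybridised to 8 Affymetrix arrays, each with 1 sample, of which 4 are labelled Ctr9 esiRNA and 4 LUC esiRNA. An esiRNA is a mixture of short double-stranded RNAs cut from 1 long transcript. The LUC esiRNA is directed against luciferase, which mouse cells do not encode, and served as the transfection control. Both groups carry the strain label Oct4-Gip and the passage label 25, both were transfected by lipofection, and both were sampled on day 4. Ctr9 is a subunit of the Paf1 complex, which accompanies RNA polymerase II through transcribed genes. No label says whether the replicates of a group were separate cultures, and the p-values here take in no more than array-to-array spread, possibly of technical origin. All arrays are of whole cultures, in which more cells of a type and more RNA per cell cannot be told apart.

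SOX proteins bind the minor groove of DNA and bend it, through a domain called the HMG box, and usually act together with a partner factor such as a POU protein. Sox1 and Sox3, with Sox2, form the group that keeps neural progenitors undifferentiated, and Sox21 is a related protein that mostly represses transcription. Sox4, Sox11 and Sox12 form another group, which acts in progenitors that are becoming neurons and in many other developing tissues. Sox7 and Sox17, with Sox18, form a group that acts in endoderm and in the endothelium of blood vessels. Sox13 belongs with Sox5 and Sox6, which lack an activation domain of their own, and Sox15 is known in ES cells as a partner of Oct4 and later in trophoblast and muscle.

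The start regions of Sox11, Sox4 and Sox21 are shown first, because Sox11 and Sox4, of 1 group, were both higher and Sox21 was lower. RefSeq start regions of 250 bases before to 50 bases after the gene's start were found for 7 of the 10 members in the GRCm38.p6 table, and Sox3, Sox7 and Sox17 were not matched. The last 120 bases before the start are given 5′ to 3′ on the gene's own strand, with each CCAAT or its reverse complement ATTGG in capitals. Sox11 is at chr12:27342719-27342838, minus strand, Sox4 at chr13:28953700-28953819, minus strand, and Sox21 at chr14:118237031-118237150, minus strand.
Sox11: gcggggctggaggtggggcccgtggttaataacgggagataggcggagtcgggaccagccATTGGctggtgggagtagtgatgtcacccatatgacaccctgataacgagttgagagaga
Sox4: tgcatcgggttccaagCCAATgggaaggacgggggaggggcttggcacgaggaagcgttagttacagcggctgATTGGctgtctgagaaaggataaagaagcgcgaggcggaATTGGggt
Sox21: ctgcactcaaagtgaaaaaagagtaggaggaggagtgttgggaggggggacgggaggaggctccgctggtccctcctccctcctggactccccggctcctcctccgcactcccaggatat

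In these windows Sox4 had 3 matches to CCAAT on either strand, Sox11 had 1 and Sox21 had none. Over the whole region CCAAT or ATTGG occurred in 4 of the 7 members (Sox1, Sox4, Sox11 and Sox12), against 37.4% of 32851 start regions of the same length. The octamer ATGCAAAT, the element to which POU proteins bind, was searched on both strands and was found in 2 of the 7, Sox1 and Sox12, against 1.74% of all start regions. It is shown in capitals within 30 bases, from the Sox1 region at chr8:12395526-12395555, plus strand, where it begins at position 19 of the transcript, and from the Sox12 region at chr2:152398223-152398252, minus strand, where it begins at position -195 from the start.
Sox1: gccagcgcgccATGCAAATcaccgccgccg
Sox12: gcgattgggagATGCAAATgctgagttctc

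The core that SOX proteins recognise, ACAAT or ATTGT, was found in 1 of the 7 regions, that of Sox15, against 31.0% of all regions. TATAAA or its reverse complement was found in none of the 7, against 13.6%, and GGGCGG or its reverse complement in 3 (Sox1, Sox11 and Sox12), against 35.7%. No one of these motifs contains another. The member regions held 52.0% to 76.7% G and C, against a median of 52.7% over all regions. A match to a few letters is a description of these windows only.

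The 8 arrays had upper quartiles of 8.10 to 8.15 (log2 signal), and the first principal component (62.3% of the variance) separated the treatments. On the second (8.93%) LUC esiRNA arrays 1 and 2 (-0.39 and -0.54) lay apart from 3 and 4 (0.37 and 0.56). Ctr9 esiRNA arrays 1 and 4 (-0.20 and -0.12) lay apart there from 2 and 3 (0.15 and 0.17), by less. Of 5 Ctr9 probe sets 2 fell, at log2 differences of -0.15 and -0.18, 1 rose by 0.29 and 2 did not pass. The brightest of the 5 read 10.11 ± 0.027 with Ctr9 esiRNA and 10.20 ± 0.058 with LUC esiRNA (SD, n = 4 each). Its log2 difference was -0.09 (limma, adjusted p = 0.209), and it carries the manufacturer's suffix for probes shared by several transcripts. The arrays thus showed no large fall of Ctr9 mRNA, and the groups are used here as labelled. The 12 ES cell markers measured were bright in every array. Their mean was 12.12 to 12.19 with Ctr9 esiRNA and 12.55 to 12.58 with LUC esiRNA. Of these markers 7 were lower with Ctr9 esiRNA, 1 was higher and 4 did not pass. Over all genes 15.0% were lower and 15.8% higher, and of genes above the median of the arrays 42.1% passed in either direction. All differences below are log2 signal with Ctr9 esiRNA minus that with LUC esiRNA, tested per probe set with limma. Their p-values are adjusted by Benjamini-Hochberg over all 45037 probe sets, with a threshold of 0.05. Means over the probe sets of a gene had a separate limma fit, with p-values adjusted in the same way over 18193 genes. The precision is limited by the number of arrays.

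Of the 10 members, each read by the brightest of its probe sets, 6 were higher, 2 were lower and 2 did not pass, that is 8 called. Over all 18193 genes 30.8% were called. The 8 called members all read above the median of the arrays, 5.75, and of all genes above that level 42.1% were called. The groups did not overlap for 8 of the 10 members, the same 8, against 36.6% of all genes. A call and groups that lie apart rest on the same values, so the second adds little to the first. Among the 29 probe sets 16 were higher, 4 lower and 9 did not pass (all probe sets, 24.9% called, 11.8% higher and 13.1% lower), and the 6 of them that read below the array median were all among the 9. The groups did not overlap for 20 of the 29, the same 20 that were called, against 28.6% of all probe sets. Of the 23 that read above the array median 20 were called, against 40.6% of all probe sets above that level. The median difference over the 10 members was 0.21, against 0.0036 over all genes.

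**Figure D1:**
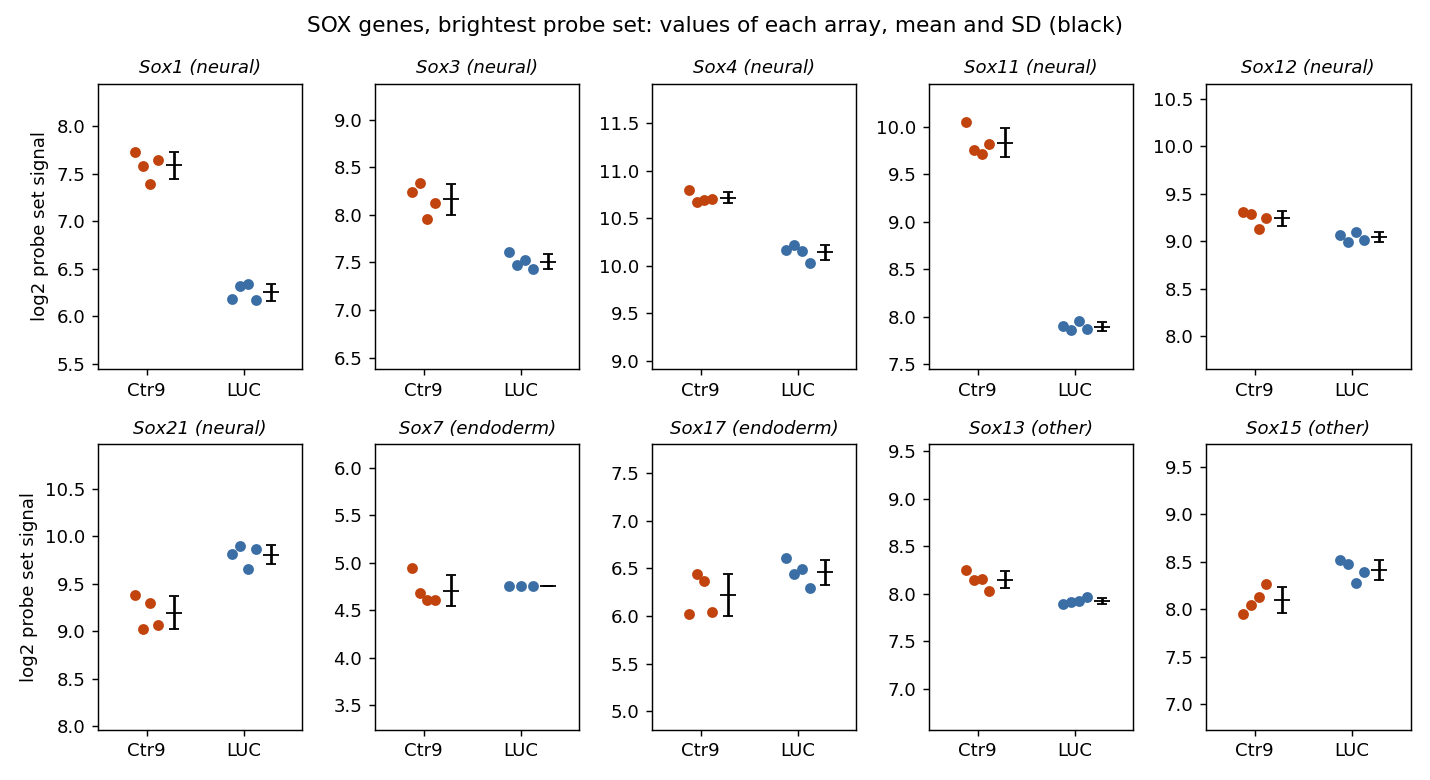
Log2 probe set signal (y axis, 3 log2 units in every panel) of the brightest probe set of each SOX gene in the 4 Ctr9 esiRNA arrays (left) and the 4 LUC esiRNA arrays (right; 3 for Sox7), 1 point per array, with mean and SD in black. The groups are apart for 8 genes, the widest for Sox11 (9.83 against 7.90), and they overlap for Sox7 and Sox17.

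Sox11 had the largest difference of the 10. It encodes an activator that is abundant in newly formed neurons. Its brightest probe set, 1436790_a_at, read 10.05, 9.75, 9.71 and 9.81 in the 4 Ctr9 esiRNA arrays, against 7.90, 7.86, 7.96 and 7.88 in the 4 LUC esiRNA arrays. Every Ctr9 esiRNA array was above every LUC esiRNA array by a wide margin. The difference was 1.93 (SE 0.072, 95% interval 1.77 to 2.10), or 3.82-fold, with a limma adjusted p of 1.38e-07. The other 5 Sox11 probe sets were also higher, by 0.91 to 1.73, so all 6 of 6 passed in 1 direction. Their mean differed by 1.38 (SE 0.051, limma adjusted p = 6.04e-08). The size of the rise varied among probe sets: it was 1.73 (SE 0.098) on the second brightest, 1453125_at, and 0.91 (SE 0.052) on 1453002_at. On 1453125_at the LUC esiRNA arrays fell into 2 pairs, 7.11 and 7.10 in arrays 1 and 2, and 6.82 and 6.70 in arrays 3 and 4, all below the Ctr9 esiRNA values of 8.75, 8.52, 8.63 and 8.74. The probe set 1429051_s_at carries the suffix that the manufacturer uses for probes shared by several transcripts, and it was higher by 1.06 (SE 0.055).

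Sox4, from the same group as Sox11, was higher by less. Its brightest probe set, 1433575_at, read 10.80, 10.67, 10.69 and 10.71 with Ctr9 esiRNA and 10.17, 10.21, 10.16 and 10.03 with LUC esiRNA. The groups were clearly apart and each was narrow. The difference was 0.57 (SE 0.055, 1.49-fold, limma adjusted p = 4.02e-05). Of 8 Sox4 probe sets 5 were higher, by 0.33 to 0.57, and they were the 5 brightest, while the other 3 did not pass and lay between -0.07 and 0.06. These 3 were 1455867_at at 6.18 with Ctr9 esiRNA and 6.25 with LUC esiRNA, 1458332_x_at at 4.21 and 4.18, and 1443778_at at 3.53 and 3.47, of which the last 2 lie below the array median. The mean of all 8 probe sets was 0.27 (SE 0.040, limma adjusted p = 0.000498), less than the value of the brightest by over 1.5 times.

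For Sox12, the last of this group, the probe sets did not show 1 direction. The brightest, 1455562_at, read 9.31, 9.29, 9.13 and 9.24 with Ctr9 esiRNA and 9.07, 8.99, 9.10 and 9.01 with LUC esiRNA, a small rise with groups only just apart. The difference was 0.20 (SE 0.054, limma adjusted p = 0.0216). The next, 1439754_at, read 6.74, 6.69, 6.63 and 6.91 with Ctr9 esiRNA and 7.07, 7.11, 7.13 and 7.12 with LUC esiRNA, so all 4 Ctr9 esiRNA values lay below all 4 others. It fell by 0.37 (SE 0.061, limma adjusted p = 0.00151). A dim Sox12 probe set, 1456882_at, differed by 0.09 (SE 0.075) and did not pass. Over all 3 probe sets the mean was -0.02 (SE 0.045, limma adjusted p = 0.727). The call of the brightest was lost when any 1 of 5 of the 8 arrays was left out (LUC esiRNA replicate 2 or 4, or Ctr9 esiRNA replicate 1, 2 or 4), at adjusted p-values of up to 0.0599, and that of 1439754_at was kept in each case. Of 9010 genes with several probe sets, 192 (2.13%) had calls in both directions, and Sox12 was the one member among them.

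Of the group that holds progenitors in their state, Sox1 was higher on 1 of its 2 probe sets. Sox1 is among the earliest markers of committed neural progenitors. On 1438729_at it read 7.73, 7.58, 7.40 and 7.65 with Ctr9 esiRNA, against 6.19, 6.32, 6.34 and 6.17 with LUC esiRNA. The groups lay more than 1 log2 unit apart at their nearest values. The difference was 1.33 (SE 0.075, 2.52-fold, limma adjusted p = 1.40e-06). The other probe set, 1422205_at, was designed from the RefSeq mRNA and read 5.89, 6.003, 5.78 and 5.75 with Ctr9 esiRNA and 5.97, 5.69, 5.88 and 5.78 with LUC esiRNA, which overlap. It differed by 0.03, with a 95% interval of -0.14 to 0.20 that does not reach the rise of the first. The mean of both was 0.68 (SE 0.056, limma adjusted p = 8.62e-06). A long noncoding gene, Sox1ot, overlaps Sox1 in the GRCm38.p6 gene table, and its part in either probe set was not tested.

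Sox3, the X-linked member of this group, was higher on both of its probe sets. On 1435192_at it read 8.24, 8.33, 7.96 and 8.13 with Ctr9 esiRNA and 7.61, 7.47, 7.53 and 7.43 with LUC esiRNA. The groups did not overlap, and the Ctr9 esiRNA arrays were the more spread. The difference was 0.65 (SE 0.080, 1.57-fold, limma adjusted p = 0.000207). On 1450485_at, designed from the RefSeq mRNA, it was 0.40 (SE 0.067, limma adjusted p = 0.00147).

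Sox21 moved the other way. Sox21 encodes a repressor that in chick opposes the progenitor-keeping SOX proteins and promotes neuronal differentiation. Its brightest probe set, 1437059_at, read 9.38, 9.03, 9.30 and 9.07 with Ctr9 esiRNA, against 9.81, 9.90, 9.66 and 9.86 with LUC esiRNA. All Ctr9 esiRNA arrays were lower. It fell by 0.61 (SE 0.088, limma adjusted p = 0.000578). The second probe set, 1451835_at, read 7.30, 7.37, 7.17 and 7.24 with Ctr9 esiRNA and 8.33, 8.35, 8.27 and 8.46 with LUC esiRNA, a wider and tighter separation. It fell by 1.08 (SE 0.060, limma adjusted p = 1.34e-06), which is 2.12-fold lower. The mean of both was -0.85 (SE 0.055, limma adjusted p = 1.90e-06). The long noncoding gene Gm4675 overlaps Sox21 in the gene table.

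**Figure D2:**
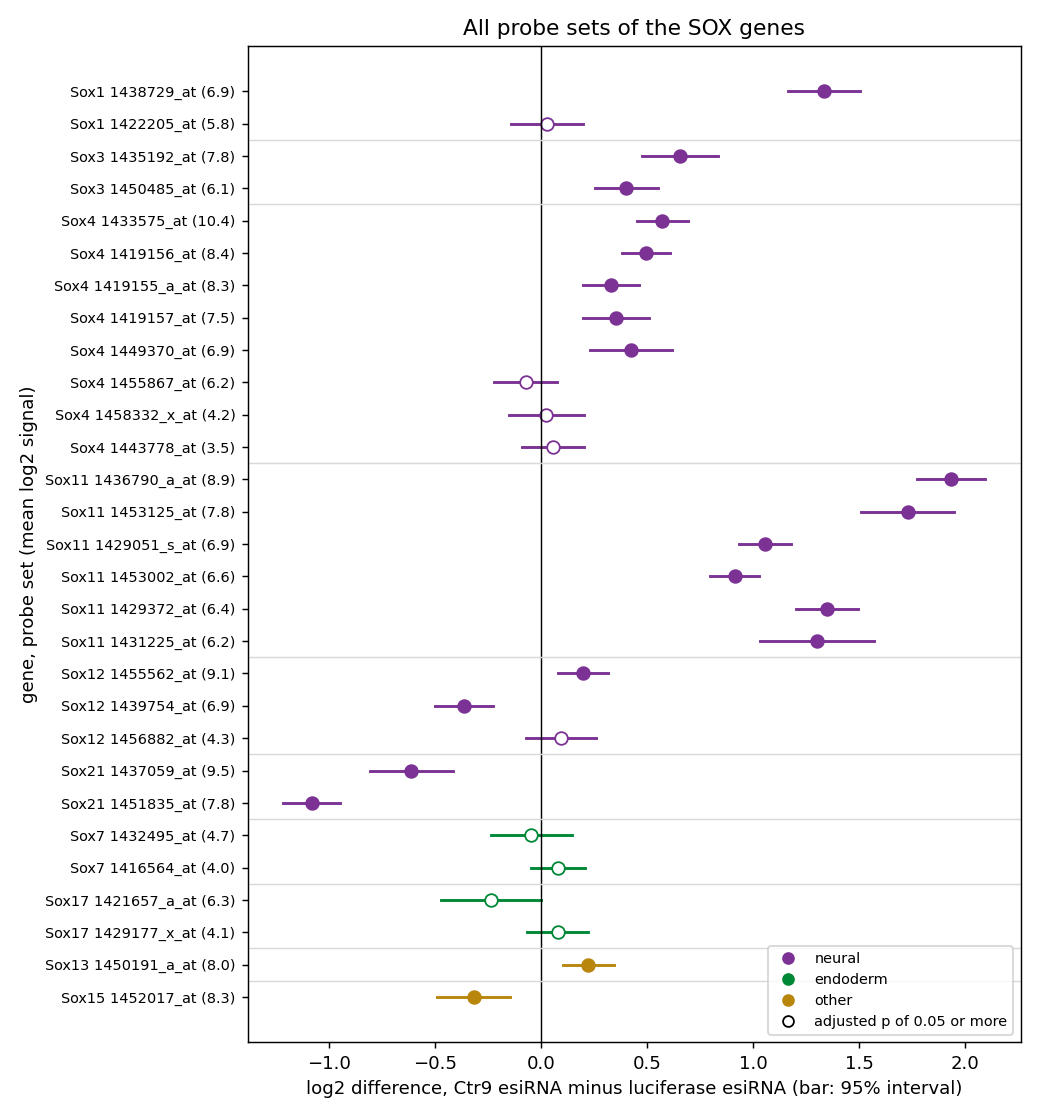
Log2 difference (x axis, Ctr9 esiRNA minus LUC esiRNA) of the 29 probe sets of the 10 SOX genes (y axis, brightest first within a gene, mean log2 signal in brackets), with 95% intervals as bars and open points where the adjusted p was 0.05 or more. All 6 Sox11 probe sets lie between 0.91 and 1.93 and the Sox21 probe sets at -0.61 and -1.08, while those of Sox12 lie on both sides of 0.

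Taking the 6 neural members by their brightest probe sets, 5 were higher and 1 was lower, at a median of 0.61. The 2 endoderm members gave 0 higher and 0 lower in limma, at a median of -0.14. Over all genes the median was 0.0036, with 15.8% higher and 15.0% lower. The 2 sets were not tested against each other. With the probe sets of each gene averaged, 4 neural members were higher, Sox21 was lower and Sox12 did not pass. The medians became 0.40 for the neural and -0.031 for the endoderm members. The shares of 15.8% and 15.0% hold for brightest probe sets, and no share over all genes is given for the averages.

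Sox17, which specifies definitive and primitive endoderm, did not pass on either of its probe sets. On the brighter one, 1421657_a_at, it read 6.02, 6.45, 6.37 and 6.04 with Ctr9 esiRNA and 6.61, 6.44, 6.49 and 6.30 with LUC esiRNA. Ctr9 esiRNA arrays 1 and 4 lay below all LUC esiRNA arrays, and arrays 2 and 3 lay among them. The difference was -0.24 (SE 0.106, limma adjusted p = 0.142), with a 95% interval from -0.47 to just below 0. Over 21 alternative settings its adjusted p ran from 0.0576 to 0.447. The dim probe set 1429177_x_at, below the array median, differed by 0.08 (SE 0.065, limma adjusted p = 0.453).

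Sox7, which acts in primitive endoderm and in endothelial precursors, read low on both of its probe sets. On 1432495_at it read 4.94, 4.68, 4.61 and 4.61 with Ctr9 esiRNA and 4.75 in each of the 3 LUC esiRNA arrays that have a value, since the value of LUC esiRNA replicate 2 is empty. The 3 LUC esiRNA values lie within the range of the other group. The difference was -0.05 (SE 0.084, 95% interval -0.24 to 0.14, n = 3 LUC esiRNA values, limma adjusted p = 0.753). On 1416564_at it was 0.08 (SE 0.057, 95% interval -0.05 to 0.21). Both Sox7 probe sets lay below the array median, and no background level was measured, so whether the gene was transcribed cannot be said from them.

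Sox13 and Sox15, each read by a single probe set, changed by small amounts in opposite directions. Sox13, on 1450191_a_at, read 8.25, 8.14, 8.15 and 8.03 with Ctr9 esiRNA and 7.89, 7.91, 7.92 and 7.97 with LUC esiRNA. The lowest Ctr9 esiRNA value was only just above the highest LUC esiRNA value. Sox13 rose by 0.22 (SE 0.054, limma adjusted p = 0.0126). Sox15, on 1452017_at, read 7.95, 8.04, 8.13 and 8.27 with Ctr9 esiRNA and 8.51, 8.48, 8.27 and 8.39 with LUC esiRNA, with Ctr9 esiRNA replicate 4 nearly touching LUC esiRNA replicate 3. Sox15 fell by 0.32 (SE 0.078, limma adjusted p = 0.0129). Without LUC esiRNA arrays 1 and 2, which lie apart from the others on the second principal component, neither passed (limma adjusted p = 0.0912 for Sox13 and 0.125 for Sox15). With these fewer arrays calls were fewer over all probe sets too, 4099 higher and 4452 lower against 5304 and 5905. Both calls held when any 1 array was left out.

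**Figure D3:**
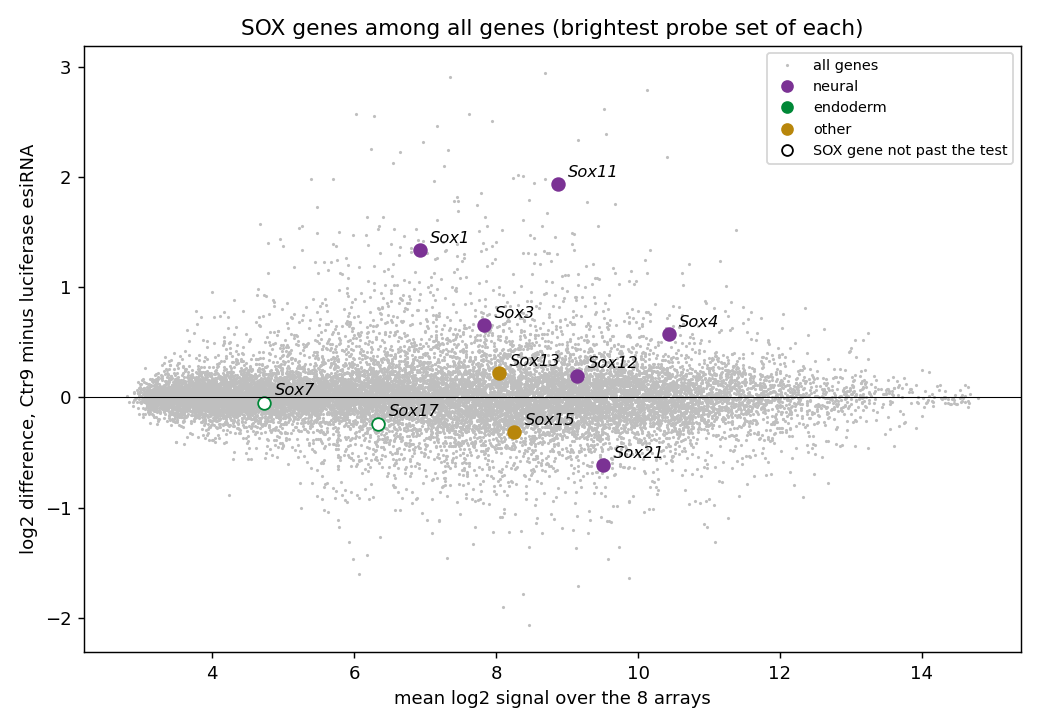
Log2 difference (y axis, Ctr9 esiRNA minus LUC esiRNA) against mean log2 signal over the 8 arrays (x axis) for 18193 genes in grey, with the 10 SOX genes in colour by role and open where they did not pass. Sox11 (1.93) and Sox1 (1.33) lie high in the cloud, below the highest gene at 2.94, with Sox21 (-0.61) in its lower part and Sox7 in the dim part.

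Probe sets of 1 member were compared with each other in 19 pairs over 8 genes, as the difference of the brightest minus another in each array. For 10 pairs the exact two-sided permutation test gave 0.0286, the smallest p that 4 arrays against 4 allow, and each became 0.0543 after adjustment over the 19 pairs, so that 0 pairs passed. This adjusted value depends only on how many pairs reach that smallest p, and without Ctr9 esiRNA replicate 2 the count past the threshold was 12, against 0 without any other 1 array. These 10 were the Sox1 pair (difference of the changes 1.31), the Sox21 pair (0.47), the pair of the 2 brighter Sox12 probe sets (0.56), 4 of the 5 Sox11 pairs (0.58 to 1.02) and 3 of the 7 Sox4 pairs (0.52 to 0.65). In each of them the brightest probe set had the more positive change.

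Genes whose 8 values lay nearest to those of a called member were found by the root mean square difference, after the LUC esiRNA mean of each gene was subtracted. Nearest to Sox11 was Pou3f1, a POU factor of the early epiblast and of neural cells, at 0.060 log2 units, followed by Fgfbp1 at 0.084 and Chst15 at 0.092. Nearest to Sox1 were Serinc5 (0.082), Prom1 (0.085) and Anxa1 (0.086), and nearest to Sox3 were Fads2 (0.058), Igsf9 (0.060) and Rnf122 (0.070). For Sox4 they were the alpha-tubulin gene Tuba1a (0.030), Tcfl5 (0.037) and Klhdc2 (0.047), and for Sox21 they were Pigl (0.084), Irak3 (0.086) and Lrmp (0.089). For the small changes of Sox12, Sox13 and Sox15 the nearest genes, Ppp2r2a, Erbb3 and Hexim2, lay at 0.024 to 0.043. The 8 arrays form 2 groups, so nearness here is mostly an equal size of the difference.

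Of the 10 SOX family genes that are not members, Sry included, 1 rose, none fell and 9 did not pass in limma. Their median was 0.096, and over all genes 15.8% were higher and 15.0% lower. The one that rose was Sox18, which acts in endothelium and shares a group with Sox7 and Sox17. It read 6.98, 6.95, 7.18 and 7.28 with Ctr9 esiRNA and 6.19, 6.32, 6.41 and 6.32 with LUC esiRNA, on a single probe set. Its groups were apart by over 0.5 log2 units, and the difference was 0.79 (SE 0.082, limma adjusted p = 7.07e-05). Sox2 itself read 13.09, 12.96, 13.03 and 12.91 with Ctr9 esiRNA and 13.16, 13.12, 13.14 and 13.01 with LUC esiRNA. The values overlapped, and the difference of -0.11 (SE 0.057, 95% interval -0.24 to 0.02, limma adjusted p = 0.196) did not pass. Sox9 (0.19), Sox30 (0.15) and Sry (0.10) did not pass either. One of the other Sox6 probe sets, 1427677_a_at, rose by 0.29 (limma adjusted p = 0.0135), while the brightest differed by 0.03. It read 3.69 with Ctr9 esiRNA and 3.39 with LUC esiRNA, and all Sox6 probe sets lay below the array median. The remaining Sox6 probe sets, 1426018_a_at at -0.19 and 1447655_x_at at 0.14, did not pass.

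The TCF and LEF factors carry a related HMG box and mediate Wnt signals. Of 3 measured genes 2 rose and none fell (all genes, 15.8% higher and 15.0% lower), at a median of 0.47. Lef1 rose by 1.24 (SE 0.067) and Tcf7l2 by 0.47 (SE 0.072), with Tcf7l2 read below the array median and at 0.27 as the mean of its 4 probe sets, while Tcf7l1, a repressor in ES cells, differed by -0.04 (SE 0.050). The POU factors, which pair with SOX proteins, gave 1 higher, 2 lower and 6 not past the test of 9 measured, at a median of 0.037. That share of calls was near the 30.8% over all genes. Pou3f1 rose by 1.94 (SE 0.058), and Pou5f1 (-0.20, SE 0.042) and Pou4f1 (-0.19, SE 0.047) fell. Pou6f1, at -0.15, did not pass on its brightest probe set, but the mean of its 2 probe sets, -0.28, did (limma adjusted p = 0.0181), and that of Pou4f1 was -0.35. Of 8 measured genes regarded as targets of Oct4 with Sox2 in ES cells, 4 fell and 2 rose, at a median of -0.14. Fgf4, a growth factor gene, fell by 0.94 (SE 0.075), Nanog by 0.44 (SE 0.044) and Fbxo15 by 0.42 (SE 0.041), and Lefty1, a Nodal inhibitor gene, rose by 0.76 (SE 0.062).

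Genes of neural progenitors and neurons, in which SOX factors act, were mixed. Of 27 measured, 9 rose and 4 fell (all genes, 15.8% higher and 15.0% lower), at a median of 0.085, and 12 of the 27 read below the array median. Cdh2, the N-cadherin gene, rose by 1.31 (SE 0.111) and the neurofilament gene Nefm, read below the array median, by 0.78 (SE 0.068). Pax6, a neural transcription factor, fell by 0.79 (SE 0.069) and the adhesion gene Ncam1 by 0.71 (SE 0.065). Over all of their probe sets the falls were smaller, -0.38 for Pax6 and -0.43 for Ncam1. The mean signal over the 27 genes was 6.92 to 6.98 in the Ctr9 esiRNA arrays and 6.80 to 6.85 in the LUC esiRNA arrays, and its part in the values of the SOX genes was not tested. The 27 measured endoderm genes gave 9 higher and 5 lower at a median of 0.031. Foxa2, an endoderm transcription factor, rose by 1.98 (SE 0.169). It read 6.15 to 7.02 with Ctr9 esiRNA and 4.61 to 4.85 with LUC esiRNA, and its mean over all arrays lay below the array median. The endocytic genes Lrp2 and Dab2 rose by 1.51 (SE 0.094) and 1.26 (SE 0.073), and Lama1 fell by 1.07 (SE 0.082), while Sox17 and Sox7 did not pass. The mean over all probe sets was 0.88 for Lrp2 and 0.63 for Dab2.

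Markers of other cell types that the cultures could hold, and of ES cells themselves, were also read, and their counts stand against the 30.8% of all genes called. Of 13 endothelial genes 3 rose and 1 fell, at a median of -0.017, with Flt1 at 0.47, Esam at 0.38, Etv2 at 0.28 and Tek at -0.26, and their mean signal was 5.89 to 5.95 with Ctr9 esiRNA and 5.78 to 5.89 with LUC esiRNA. Of 17 measured fibroblast genes 6 rose and 1 fell, at a median of 0.097. Among them were Col5a2 at 0.74, Mmp2 at 0.42, Twist1 at 0.41 (just below the array median) and Fn1 at -0.48 (n = 3 Ctr9 esiRNA values). The mean signal of the 16 fibroblast genes with a value in every array was 5.98 to 6.03 with Ctr9 esiRNA and 5.74 to 5.85 with LUC esiRNA. The ES cell markers, 12 measured, gave 1 higher and 7 lower at a median of -0.32, among them Esrrb (-1.10), Tfcp2l1 (-0.92) and Klf4 (-0.91). For Tfcp2l1 the mean of all its probe sets was -0.30. The part of these markers in the results for the SOX genes was not tested.

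**Figure D4:**
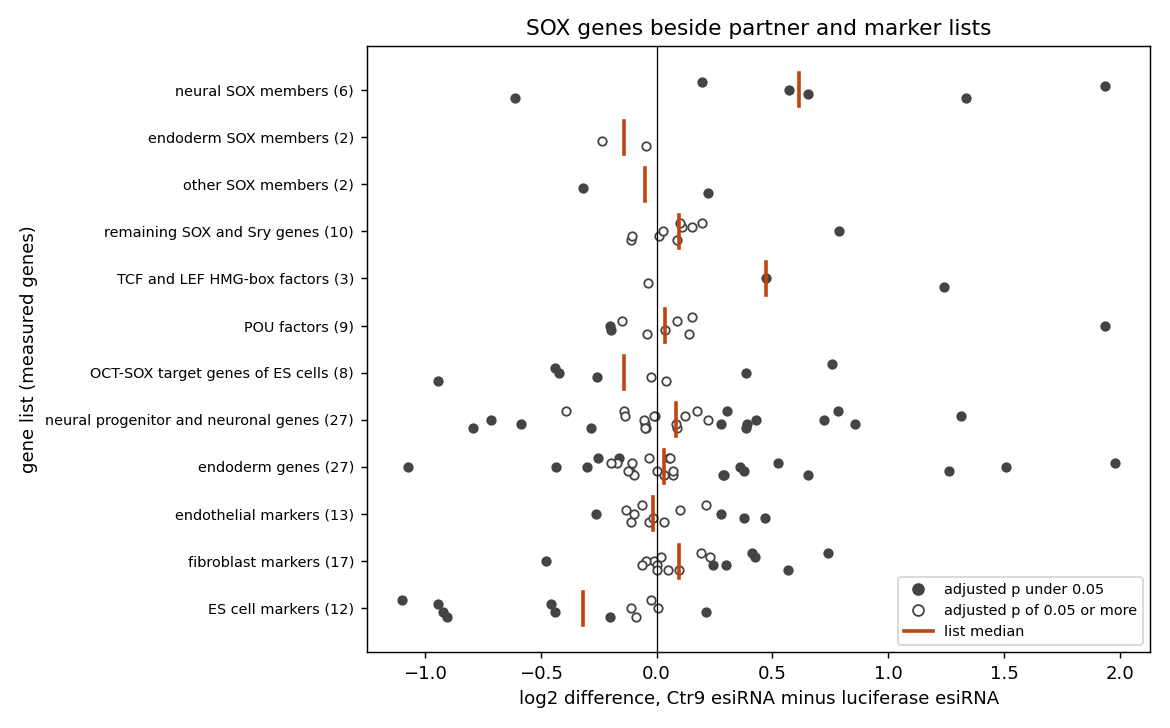
Log2 difference (x axis, Ctr9 esiRNA minus LUC esiRNA) of each measured gene by its brightest probe set, for the SOX genes and the partner and marker lists (y axis, number of measured genes in brackets), filled where the adjusted p was under 0.05, with the list median as a red bar. The median of the 6 neural SOX genes is 0.61 and that of the 27 neural progenitor and neuronal genes 0.085.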

How the data were processed

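What the authors deposited are log2 signals per probe set, from 8 one-colour arrays. GCOS 1.4 and RMA are named in the submitters' processing notes, and per the labels' protocols DNase-treated total RNA was labelled with biotin in 1 cycle. RMA equalises the arrays' distributions, so it hides any shift that every gene shares. The 64 manufacturer's control probe sets of 45101 were left out. Symbols came from the platform annotation (34945 probe sets with 1 symbol), checked and, where changed, updated through the GRCm38.p6 gene table for 34741 of them. A gene was read by its brightest probe set, the one of highest mean signal. Groups were compared with limma 3.58.1 in R 4.3.3 (lmFit, eBayes), and empty values were left out. Means over the probe sets of a gene were fitted separately, and there an empty value was replaced by the mean of its group. SE is limma's moderated standard error. On simulated arrays for this comparison (45037 probe sets, 200 changed), 100% of changes of 1 log2 unit were found, 88% of 0.5, 40% of 0.3 and 2% of 0.2, with 4 false calls among 119. In the data 11209 probe sets passed, which makes the adjusted threshold less strict there than in the simulation. The simulated shares for small changes therefore do not say how often such changes were found in the data. Named are all members, up to 4 genes per list with the smallest adjusted p, Sox2, Ctr9 and the 3 nearest genes of each called member. The Sox6 probe sets were singled out after their values were seen. The members and lists were chosen with earlier results of these data known. Alternatives were other scalings, filters on dim probe sets, priors, the replicate number as a block, array weights, arrays left out, a stricter threshold and probe sets averaged per gene. Figures were drawn with matplotlib 3.10.9.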

Additional observations from a re-analysis of the deposited data

Results flagged for a closer look

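Of 136 groups of 4 values of the SOX genes and the other named genes, 1 held a value far from the rest of its group. Lama1, a laminin gene of basement membranes, read 8.36 in Ctr9 esiRNA replicate 1, against 8.65 to 8.71 in the other 3 Ctr9 esiRNA arrays, all below the LUC esiRNA mean of 9.67. Chance flags about 1 in 20 groups. None of the SOX genes was among them.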

How the results depend on the processing

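Under 3 other scalings, 2 filters on dim probe sets, a trended robust prior, array weights and only probe sets with 8 values, the members gave 6 higher and 2 lower as reported. Leaving out 1 array gave 5 to 6 higher and 2 lower, and the calls of Sox1, Sox3, Sox4, Sox11, Sox21, Sox13 and Sox15 on their brightest probe sets held each time. At an adjusted p under 0.01 there were 4 higher and 1 lower, with 3389 and 3611 of all probe sets, 1 POU factor lower and 0 ES cell markers higher. Replicate numbers did not pair the arrays: deviations of equal numbers correlated at -0.0776 to 0.0625. With the replicate number as a block 5 members were higher, Sox12 being lost (limma adjusted p = 0.0598), 2 were lower, and 4606 and 5165 probe sets passed. Leaving out LUC esiRNA arrays 1 and 2, chosen after seeing the data, gave 4 members higher and 1 lower (Sox21). It gave 0 ES cell markers higher, and 4099 of all probe sets were higher and 4452 lower. Leaving out LUC esiRNA arrays 3 and 4, also chosen after seeing the data, gave 5 and 2 members. It gave 0 POU factors lower, 3 endoderm genes lower and 0 ES cell markers higher, with 4037 and 4595 of all probe sets. The mean of all probe sets moved the neural median to 0.40 and the endoderm median to -0.031, with Sox12 at -0.025 and Sox7 at 0.017, both reversed. The endoderm median was -0.24, that of Sox17 alone, where the Sox7 probe set was left out, among probe sets above the median signal and among those with 8 values. Under cyclic loess the Sox7 probe set, which has an empty value, was not tested either. Above the median signal 3 of the other SOX genes, 1 TCF or LEF gene and 1 Oct4 and Sox2 target were higher. The trended prior gave 1 of the other SOX genes lower. The fibroblast list had 0 lower under cyclic loess and among probe sets with 8 values, since the Fn1 probe set has an empty value and was not tested there. Leaving out 1 array gave 0 to 1 ES cell markers and 1 to 2 of the other SOX genes higher, and 0 to 12 of the 19 probe set pairs past the threshold (12 without Ctr9 esiRNA replicate 2). Uncalled probe sets near 0 changed sign: without 1 array Sox4 1458332_x_at ran from -0.022 to 0.090 and Sox1 1422205_at from -0.022 to 0.074, and Sox4 1443778_at was -0.023 without LUC esiRNA arrays 1 and 2. The cause of the other shifts was not tested.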

Other observations

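The table holds 456 empty values among the tested probe sets, 1 at most per probe set. Where a group of 4 has an empty value, the 3 values left lie very close together: the median of their SD is 0.0032 and the highest 0.085, against a median SD of 0.088 over groups with all 4 values. The sources used here do not say how values came to be empty. Among the SOX genes this concerns 1 value, that of Sox7 in LUC esiRNA replicate 2, where the 3 values left all read 4.75, and among the other named genes it concerns Fn1. The SD of such a group may understate the spread between its arrays.

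In the gene table the span of Sox15 overlaps that of the protein-coding gene Mpdu1, and the span of Sox4 that of the long noncoding gene Gm46405. Strands and exons of these genes were not compared. The table does not give the strand on which the probes were designed, and the share of these neighbours in the signals was not tested.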
